A study of Mus musculus with 6 samples.

Results

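Genes of hepatic glucose and glycogen metabolism were examined in the liver of mice given trichloroethylene (TCE), an industrial solvent. The set comprised 45 genes chosen by name, with earlier results of these data known, of 24239 genes with a symbol on the array. All 45 genes had at least 1 probe, 68 probes in all. They were divided into 7 steps, namely uptake and phosphorylation (5 genes), glycolysis (13), gluconeogenesis (9), glycogen (6), pentose phosphate (4), pyruvate dehydrogenase (4), and fructose and glycerol (4). All 6 animals were male B6C3F1 hybrid mice, labelled as 7 weeks old, dosed by gavage once a day for 5 days and fed ad libitum. The 3 control mice received the corn oil vehicle, and the 3 TCE mice received TCE in corn oil at 1000 mg/kg b.w. All mice were killed within hours of the last dose, so effects of that dose and of the 5 days cannot be told apart. Total RNA of the whole liver of each mouse was hybridized to a 1-colour microarray of its own. Whole tissue of 1 sex, 1 strain and 1 time point limits what these groups stand for, and whether food was withdrawn before the animals were killed is not given in the sources used here.

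The liver takes up glucose after a meal, traps it as glucose 6-phosphate and stores it as glycogen. It releases glucose between meals by breaking glycogen down and by making glucose anew from lactate, glycerol and amino acids. Glucose 6-phosphate can also enter the pentose phosphate pathway, which yields NADPH, or be split by glycolysis to pyruvate. Pyruvate enters mitochondrial oxidation through the pyruvate dehydrogenase complex, which the pyruvate dehydrogenase kinases (PDKs) switch off by phosphorylation.

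Signals were background-corrected spot intensities on the log2 scale after quantile normalization, so a difference of 1 is a 2-fold change. A probe was taken as detected if, in control mice, in TCE mice or in both, its signal exceeded background clearly in all 3 animals. By this measure 43 of the 45 genes were detected, and 64 of their 68 probes. The exceptions were Hk2, hexokinase 2, whose probe was well above background on 1 of 3 control and 1 of 3 TCE arrays, and Pck2, the mitochondrial PEP carboxykinase, which was so on none. No level is given for either. Where a gene had several detected probes, the brightest over the 6 arrays stood for it. Between 23537 and 24965 probes per array were well above background and 0 spots were saturated. The 7 hepatocyte markers examined, such as Alb and Ttr, were all detected and 0 of them passed the test. Control mouse 1 was on a slide and scan of its own while the other 5 mice shared a slide.

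Across the 43 detected genes, 3 rose at an adjusted p of 0.05 or less (limma, Benjamini-Hochberg adjustment over all detected probes) and 0 fell. They were Pdk4, which encodes a kinase that switches off pyruvate dehydrogenase, Gpd2, the mitochondrial glycerol-3-phosphate dehydrogenase, and Gbe1, the glycogen branching enzyme. Pdk4 and Gpd2 also changed by at least 2-fold. The array as a whole had 1.80% of detected genes higher and 0.587% lower at this adjusted p. With the 2-fold limit the shares were 1.30% higher and 0.429% lower. Against them stood 6.98% of the set for the adjusted p alone and 4.65% with the fold limit, which is 3 and 2 genes. Because the set was chosen with earlier results of these data known, its shares are description only.

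The remaining 40 genes did not pass the test. In sign, 30 of the 43 detected genes were higher in TCE mice and 13 were lower, with a median log2 difference of 0.19, and the median over all 13284 detected genes was 0.02. At an unadjusted p under 0.05 there were 12 genes higher and 2 lower, or 27.9% and 4.65% of the set, and on the whole array 12.0% and 7.11%. The 3 TCE mice lay above all 3 control mice for 14 genes (32.6%) and below them for 2 (4.65%). For all detected genes those shares were 17.1% and 10.8%.

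**Figure D1:**
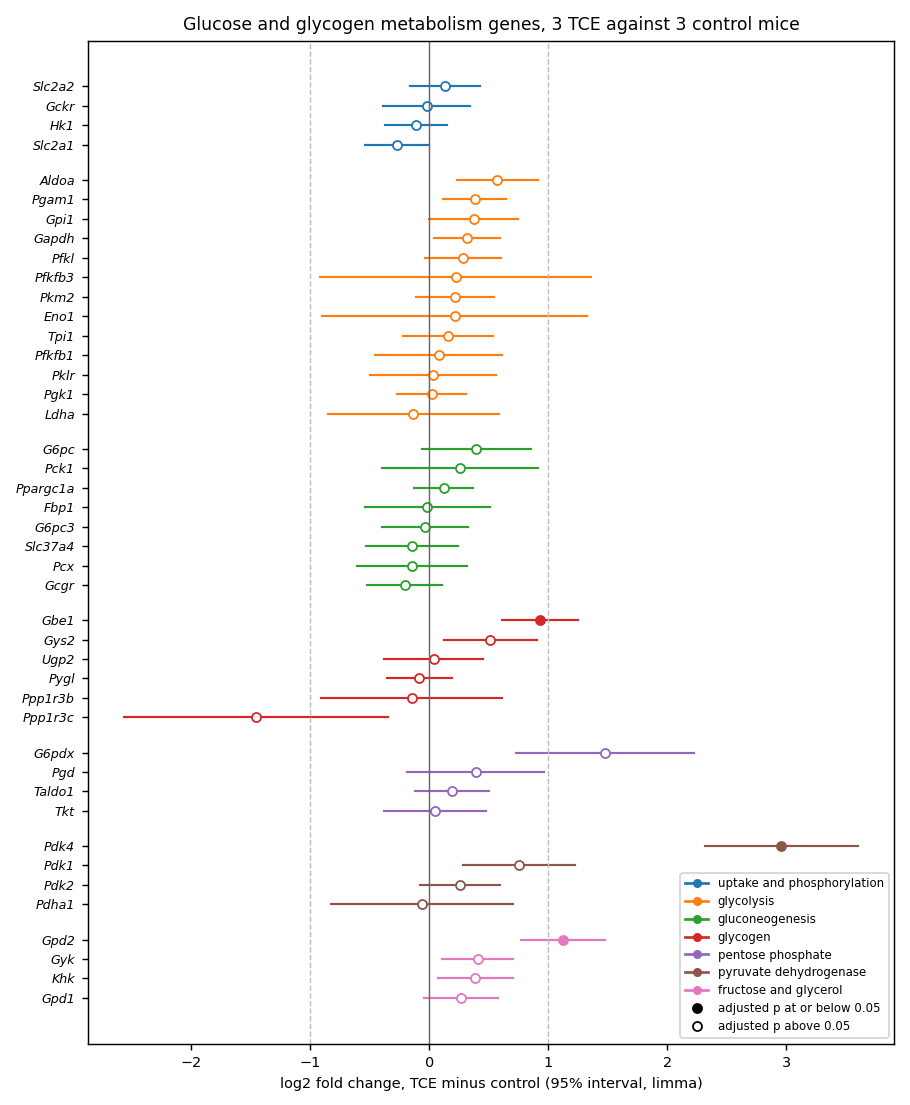
Log2 fold change of TCE over control (horizontal axis, log2 units) for the 43 detected genes, grouped by step and ordered by size within each step, with 95% intervals from limma. Filled points are Pdk4 at 2.96, Gpd2 at 1.12 and Gbe1 at 0.93, the genes with an adjusted p of 0.05 or less, and dashed lines mark a 2-fold change either way.

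Promoters of 4 genes are shown, those of the 3 genes that rose and of Ppp1r3c, which had the lowest difference of the set. Each runs from 250 bases before to 50 bases after a transcription start in RefSeq on GRCm38.p6, 5′ to 3′ on the gene's own strand. Capitals mark the E-box CACGTG, a site of basic helix-loop-helix factors, among them the carbohydrate-response factor ChREBP and the clock factors. Pdk4 lies at chr6:5496229-5496528 on the minus strand, the first of 2 Gpd2 promoters at chr2:57237428-57237727 on the plus strand, Gbe1 at chr16:70313699-70313998 on the plus strand, and Ppp1r3c, which encodes a glycogen-targeting subunit of protein phosphatase 1, at chr19:36736555-36736854 on the minus strand.
Pdk4: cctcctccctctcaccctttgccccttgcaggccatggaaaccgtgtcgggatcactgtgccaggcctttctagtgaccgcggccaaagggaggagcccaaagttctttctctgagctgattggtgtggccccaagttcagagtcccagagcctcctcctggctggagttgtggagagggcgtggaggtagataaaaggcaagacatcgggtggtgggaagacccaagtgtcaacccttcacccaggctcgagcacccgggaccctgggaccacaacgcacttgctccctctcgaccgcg
Gpd2: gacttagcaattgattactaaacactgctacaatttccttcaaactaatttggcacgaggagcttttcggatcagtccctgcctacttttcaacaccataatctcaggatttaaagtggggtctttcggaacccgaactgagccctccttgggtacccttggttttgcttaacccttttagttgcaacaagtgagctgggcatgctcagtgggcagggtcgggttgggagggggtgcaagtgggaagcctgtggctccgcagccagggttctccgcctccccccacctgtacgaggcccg
Gbe1: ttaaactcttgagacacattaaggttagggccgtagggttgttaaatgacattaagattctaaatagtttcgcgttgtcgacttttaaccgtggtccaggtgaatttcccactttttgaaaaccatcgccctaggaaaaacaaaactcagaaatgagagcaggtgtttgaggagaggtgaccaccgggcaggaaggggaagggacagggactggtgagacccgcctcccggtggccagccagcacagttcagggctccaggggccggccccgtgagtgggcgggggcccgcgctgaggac
Ppp1r3c: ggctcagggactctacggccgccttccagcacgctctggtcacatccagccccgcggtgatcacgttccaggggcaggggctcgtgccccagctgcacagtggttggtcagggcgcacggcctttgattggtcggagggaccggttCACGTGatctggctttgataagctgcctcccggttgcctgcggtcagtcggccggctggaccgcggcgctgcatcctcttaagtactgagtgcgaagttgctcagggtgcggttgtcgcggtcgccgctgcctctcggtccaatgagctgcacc
The Ppp1r3c window holds CACGTG at base -104 from the start, and the other 3 windows hold none of the motifs searched. The guanine and cytosine content was 60.7% for Pdk4, 53% for the Gpd2 window shown, 54.3% for Gbe1 and 65.3% for Ppp1r3c. It was 72.7% for the second Gpd2 promoter, which is not shown. The median over 32851 mouse promoters was 52.7%.

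Of the 45 genes, 42 matched the promoter table, with 62 promoters among them. The E-box CACGTG occurred in 8 of the 62 promoters, each of a different gene (Pfkfb3, Ldha, G6pc3, Pcx, Ppp1r3c, Pdk2, Khk and Gyk), and in 7.15% of all promoters. The cAMP response element TGACGTCA occurred in 1 of the 62, that of Ldha, and in 1.79% of all promoters. The forkhead site GTAAACA was in 0 of the 62 and in 3.65% of all promoters. AGGTCANAGGTCA, the direct repeat that nuclear receptor pairs such as PPARα with RXR bind, was also in 0, and 0.0396% of all promoters hold these exact letters. Its single repeat AGGTCA, which lies within the longer motif, was in 12 of the 62 promoters, of 11 genes, and in 16.3% of all promoters. Both strands were searched, and these are matches of letters only.

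The pyruvate dehydrogenase step contained the gene with the largest change of the set. PDKs phosphorylate and inactivate the complex, and Pdk4 is a known target of PPARα in liver. The log2 signal of Pdk4 was 7.47, 7.15 and 7.17 in control mice 1, 2 and 3 and 10.51, 10.52 and 9.63 in TCE mice 1, 2 and 3. Every TCE mouse lay more than 2 log2 units above every control mouse. The means were 7.26 ± 0.18 and 10.22 ± 0.51 (SD, n = 3 each), a rise of 2.96 (95% CI 2.31 to 3.60) or 7.77-fold, with a limma adjusted p of 0.00657. Its probe lies at chr6:5433441-5433500 on mm9. Pdk4 passed the test with each mouse left out in turn, and its difference ranged from 2.53 to 3.25 over all settings tried. It missed the threshold when dim probes were tested as well (limma adjusted p = 0.0572), and the methods' t-test, after adjustment, called 0 genes of the set at 2-fold.

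The other detected PDKs were compared with Pdk4. Pdk1 had log2 signals of 9.84, 9.44 and 9.97 in control mice and of 10.59, 10.22 and 10.70 in TCE mice. The groups did not overlap, and the difference of 0.75 (95% CI 0.28 to 1.23) did not pass the test (limma adjusted p = 0.127). Pdk2 had 11.30, 11.66 and 11.65 in control mice and 11.73, 11.88 and 11.78 in TCE mice. Its groups also lay apart, by a narrow gap, and the difference was 0.26 (limma adjusted p = 0.394). A second Pdk2 probe gave 0.20, again without overlap. Pdha1, the E1α subunit of the complex that PDKs act on, differed by -0.06, with TCE mice from 10.06 to 11.34 on either side of the controls. Over the 4 genes of this step, 3 of them PDKs, the median difference was 0.51. Of 7 other detected genes of the step, outside the set, 6 were higher and 1 lower, with a median of 0.26, and 0 passed the test. Among the higher ones Pdp2, a catalytic subunit of the opposing pyruvate dehydrogenase phosphatase, differed by 0.44 without overlap (limma adjusted p = 0.151).

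Of the genes of fructose and glycerol metabolism, all 4 had their TCE mice above their control mice on the probes that stood for them. The share of all detected genes that did so was 17.1%. Gpd2 passes electrons from glycerol 3-phosphate to the respiratory chain in the inner mitochondrial membrane. Its log2 signal was 9.25, 9.52 and 9.71 in control mice and 10.68, 10.58 and 10.59 in TCE mice. The TCE mice lay close together and the lowest of them was well above the highest control mouse. Means were 9.49 ± 0.23 and 10.62 ± 0.05 (SD, n = 3 each), a rise of 1.12 (95% CI 0.77 to 1.48) or 2.18-fold, with a limma adjusted p of 0.0230. The Gpd2 probe lies at chr2:57216509-57216674 on mm9. The call was lost when any mouse other than control mouse 3 was left out, with limma adjusted p from 0.0558 (without control mouse 1) to 0.101 (without control mouse 2), while the difference stayed between 1.00 and 1.23 over all settings.

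Gyk, glycerol kinase, makes the glycerol 3-phosphate that Gpd1 and Gpd2 oxidize. It had log2 signals of 9.59, 9.40 and 9.61 in control mice and of 9.85, 10.08 and 9.89 in TCE mice. The groups were apart, and the difference of 0.40 (95% CI 0.11 to 0.70) did not pass the test (limma adjusted p = 0.170). Gpd1, the cytosolic glycerol-3-phosphate dehydrogenase, differed by 0.26 with control mice from 15.68 to 15.80 and TCE mice from 15.88 to 16.21. Khk, ketohexokinase, which phosphorylates fructose, differed by 0.39 and its TCE mice spanned 16.87 to 16.93. A second Khk probe gave 0.08 with overlapping groups. The median of the 4 genes was 0.40.

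Glycogen genes did not move as a block. In the set their differences ran from -1.46 to 0.93, with 3 genes higher, 3 lower and a median of -0.02. Of 21 other detected glycogen genes, outside the set, 15 were higher and 6 lower, with a median of 0.04. Gbe1, which forms the branch points of glycogen, had log2 signals of 13.27, 12.97 and 13.27 in control mice and of 14.20, 14.05 and 14.05 in TCE mice. No TCE mouse came within 0.5 log2 units of a control mouse. The means of 13.17 ± 0.18 and 14.10 ± 0.09 (SD, n = 3 each) differed by 0.93 (95% CI 0.61 to 1.25) or 1.91-fold, with a limma adjusted p of 0.0289. A second, much dimmer Gbe1 probe showed 0.61 with no overlap and a limma adjusted p of 0.184. These probes lie at chr16:70569840-70569899 and chr16:70361227-70361286 on mm9. The Gbe1 call was lost whichever mouse was left out (limma adjusted p from 0.0674 without TCE mouse 3 to 0.112 without TCE mouse 1), and also with normexp background correction (limma adjusted p = 0.0516). The difference was 0.73 to 1.01 over all settings.

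Ppp1r3c recruits protein phosphatase 1 to glycogen, where the phosphatase activates glycogen synthase. It had log2 signals of 11.61, 12.08 and 10.33 in control mice and of 9.49, 9.89 and 10.27 in TCE mice. The groups were separated only by the small gap between control mouse 3 and TCE mouse 3, and the control mice varied more here than for any other gene of the set (SD 0.91). The difference of -1.46 (95% CI -2.56 to -0.35) was the lowest of the set and did not pass the test (limma adjusted p = 0.179). It stayed negative whichever mouse was left out, and over all settings it was -1.96 to -1.08. Gys2, the liver glycogen synthase, differed by 0.51 with control mice from 14.63 to 14.82 and TCE mice from 14.97 to 15.49 (limma adjusted p = 0.180). Its second probe gave 0.53 with overlap.

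The other glycogen genes differed little. Pygl, the liver phosphorylase that breaks glycogen down, differed by -0.08. Ugp2, which makes the UDP-glucose that glycogen synthase uses, differed by 0.04, and by -0.14 on a second probe. Ppp1r3b, the main hepatic glycogen-targeting subunit, differed by -0.15, and its control mice spanned 14.71 to 16.01. Control mouse 2 was the highest and control mouse 3 the lowest for both Ppp1r3b and Ppp1r3c.

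A further subunit of this family, Ppp1r3g, is outside the set but among the 92 other pathway genes listed. It had log2 signals of 8.87, 7.96 and 7.82 in control mice and of 10.79, 11.89 and 10.65 in TCE mice. All TCE mice were far above all control mice. The difference was 2.89 (95% CI 1.89 to 3.90) or 7.43-fold, with a limma adjusted p of 0.0296. Its call was lost when any mouse other than control mouse 1 was left out (limma adjusted p from 0.0502 without TCE mouse 2 to 0.122 without control mouse 2). Ppp1r3g and Slc2a4 stand on the study's own list of changed genes, made from these same samples, so their direction here is not independent evidence.

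**Figure D2:**
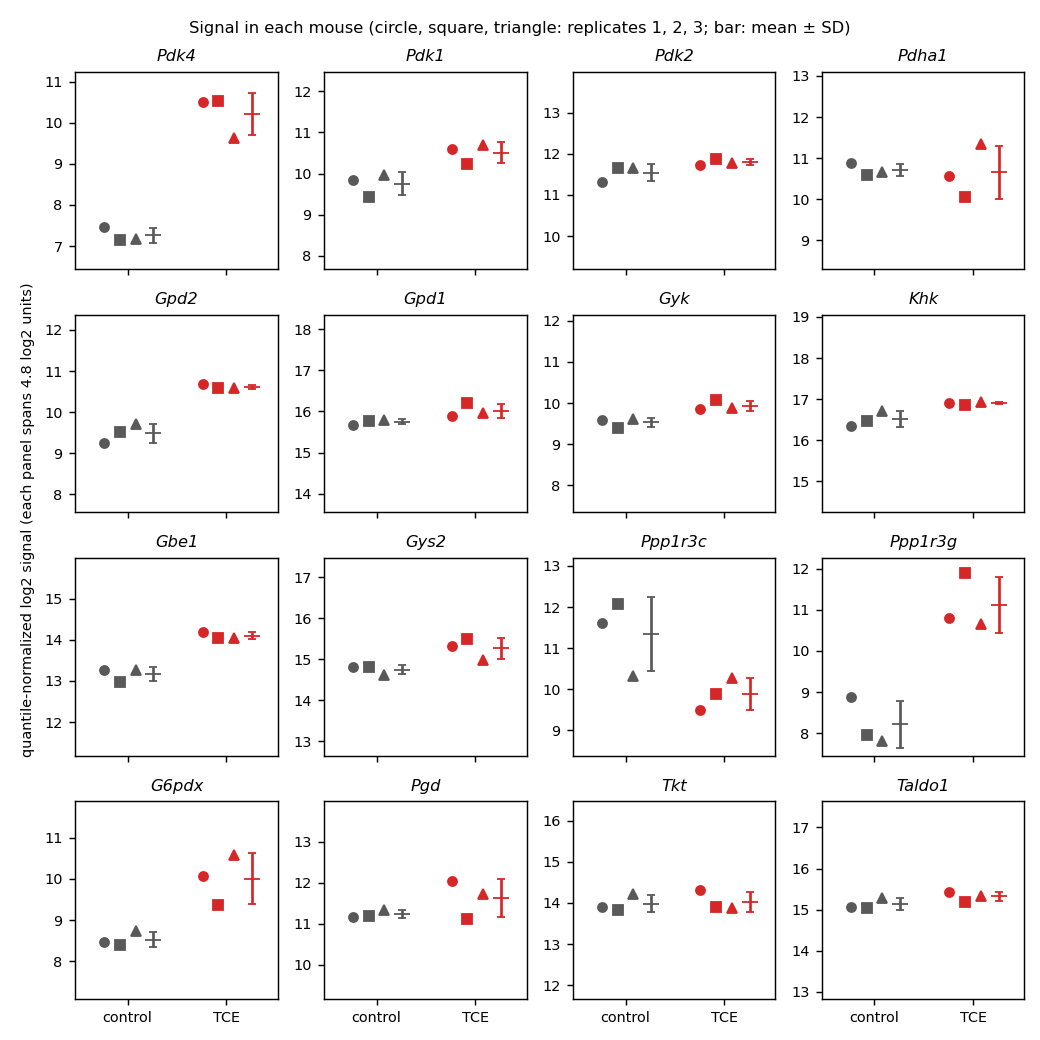
Quantile-normalized log2 signal (vertical axis) of 16 genes in each of 3 control mice (grey) and 3 TCE mice (red), with mean ± SD beside the points. Every panel spans the same number of log2 units, so that the separate groups of Pdk4, Gpd2, Gbe1 and Ppp1r3g can be set against the overlapping ones of Pdha1, Pgd, Tkt and Taldo1.

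In the pentose phosphate pathway all 4 genes of the set had positive differences, with a median of 0.29, and 0 passed the test. Of 5 other detected genes of the pathway, outside the set, 3 were higher and 2 lower. Among the lower ones Pgls, 6-phosphogluconolactonase, differed by -0.60 without overlap (limma adjusted p = 0.184). G6pdx, the entry enzyme and the first source of NADPH, had log2 signals of 8.46, 8.39 and 8.73 in control mice and of 10.08, 9.35 and 10.58 in TCE mice. The TCE mice were all above the control mice but differed among themselves, TCE mouse 2 being the lowest. The means were 8.53 ± 0.18 and 10.00 ± 0.62 (SD, n = 3 each), a difference of 1.48 (95% CI 0.73 to 2.23) or 2.79-fold, with a limma adjusted p of 0.0791. The probe lies at chrX:71654949-71655008 on mm9. Without TCE mouse 2 the difference was 1.80 and passed the test (limma adjusted p = 0.0343), as it did with array weights (1.59, limma adjusted p = 0.0334).

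Pgd, which carries out the other NADPH-yielding step, had 11.17, 11.20 and 11.34 in control mice and 12.04, 11.12 and 11.73 in TCE mice. TCE mouse 2 again was the lowest, here below all control mice, and the difference of 0.39 did not pass the test (limma adjusted p = 0.452). Taldo1 (transaldolase) and Tkt (transketolase), which rearrange sugars in the branch without NADPH, differed by 0.19 and 0.05 with overlapping groups.

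In glycolysis 12 of 13 genes of the set were higher in TCE mice, by small amounts, beside 53.1% of all detected genes. The differences of the 13 ran from -0.13 to 0.57 with a median of 0.21, and 0 passed the test. Of 10 other detected glycolytic genes, outside the set, 6 were higher and 4 lower, with a median of 0.04. Among the lower ones Aldoc, aldolase C, differed by -0.41 without overlap (limma adjusted p = 0.266). Aldoa, aldolase A, had log2 signals of 14.74, 14.44 and 14.85 in control mice and of 15.29, 15.28 and 15.17 in TCE mice. It showed no overlap, and its difference of 0.57 (95% CI 0.23 to 0.91) had a limma adjusted p of 0.114. Pgam1, phosphoglycerate mutase, had 14.65, 14.69 and 14.62 in control mice and 15.09, 14.92 and 15.09 in TCE mice. These groups were apart as well, and their means differed by 0.38 (limma adjusted p = 0.149).

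Gapdh and Ldha were the reference genes of the study's qPCR. Gapdh, which oxidizes glyceraldehyde 3-phosphate, had log2 signals of 17.09, 17.19 and 17.33 in control mice and of 17.45, 17.56 and 17.55 in TCE mice. Every TCE mouse was above every control mouse, and the difference was 0.32 (95% CI 0.04 to 0.60, limma adjusted p = 0.229). Of the 7 detected Gapdh probes, 6 were higher in TCE mice and 5 of these without overlap, and the probes ranged from -0.03 to 0.48. At least 1 position column of the annotation places 2 of them off the gene's own chromosome, among them the brightest, so their gene assignment is uncertain. Ldha, which converts pyruvate to lactate, had 17.03, 17.16 and 16.95 in control mice and 17.36, 16.22 and 17.15 in TCE mice. The low value of TCE mouse 2 set the sign of the difference, which was -0.13 with it (limma adjusted p = 0.851) and 0.21 without it. The 3 Ldha probes gave -0.13, 0.23 and -0.02.

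**Figure D3:**
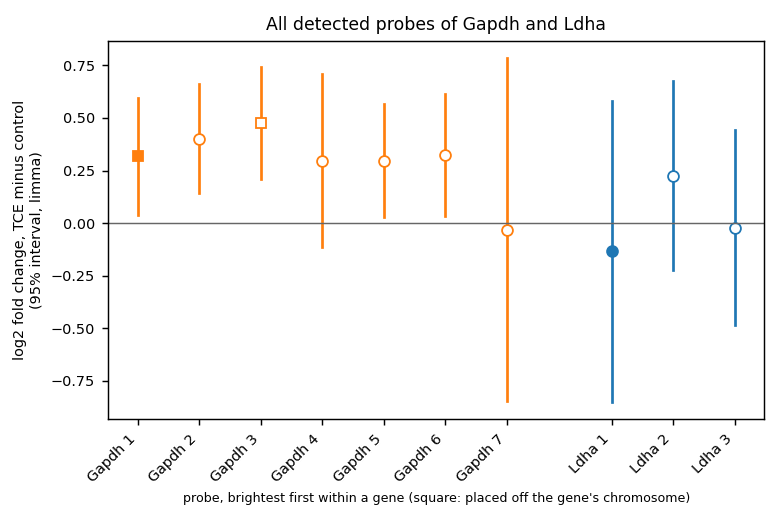
Log2 fold change of TCE over control (vertical axis, log2 units) with 95% intervals from limma for each detected probe of Gapdh (7) and Ldha (3). Filled symbols are the probes that stand for the gene and squares are probes placed off its chromosome, and 6 of the Gapdh probes lie above 0 while the Ldha probes lie on both sides of it.

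The 2 pyruvate kinase genes catalyse the last step of glycolysis, Pklr being the liver form and Pkm2 the form of muscle and growing cells. Pklr had 9.24, 9.39 and 9.73 in control mice and 9.78, 9.10 and 9.58 in TCE mice. Its groups overlapped throughout, with a difference of 0.03 (limma adjusted p = 0.956). Pkm2 had 8.75, 8.73 and 8.63 in control mice and 8.71, 9.11 and 8.93 in TCE mice. Here too the groups overlapped, at a difference of 0.21 (limma adjusted p = 0.466).

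On the probes that stood for them, the groups overlapped for the remaining glycolytic genes. Gpi1, glucose-6-phosphate isomerase, differed by 0.37, and its other 2 probes gave 0.36 and 0.29 without overlap (lowest limma adjusted p of the 3 probes 0.272). Pfkl, liver phosphofructokinase, differed by 0.28. Tpi1, triosephosphate isomerase, differed by 0.15 and Pgk1, phosphoglycerate kinase, by 0.02. Pfkfb1 and Pfkfb3, which set the level of the glycolytic activator fructose 2,6-bisphosphate, differed by 0.08 and 0.22. Eno1, enolase, differed by 0.21, and TCE mouse 3 at 15.82 stood apart from the other TCE mice, with 14.42 and 14.23. The brightest probes of Hk1 and Eno1, like that of Gapdh, are placed off the gene's own chromosome by a position column and on it by the other. That of Pgk1 is placed on chr3 by both, while the gene lies on chrX. Its other probe, with a difference of 0.10, is placed on chr3 by a position column and described as a related sequence. The gene assignment of both Pgk1 probes is uncertain.

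Gluconeogenic genes were split in sign, with 3 of 8 detected genes higher, 5 lower and a median of -0.03. The differences spanned -0.21 to 0.39 and 0 passed the test. Of 11 other detected gluconeogenic genes, outside the set, 6 were higher and 5 lower, with a median of 0.11, and 0 passed the test. Among these, 4 (36.4%) were higher without overlap, beside 17.1% of all detected genes, and 0 were lower without overlap. The largest difference was that of Cebpb, 0.98 (limma adjusted p = 0.140). G6pc, the liver glucose-6-phosphatase that releases free glucose, had log2 signals of 14.58, 14.18 and 14.41 in control mice and of 14.51, 14.76 and 15.09 in TCE mice. TCE mouse 1 fell among the control mice, and the difference of 0.39 had a limma adjusted p of 0.343. G6pc3, the form found in most tissues, had 9.78, 9.98 and 10.25 in control mice and 9.88, 10.04 and 9.97 in TCE mice. The TCE values lay within the control range, at a difference of -0.04 (limma adjusted p = 0.924).

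Pck1, the cytosolic PEP carboxykinase that commits carbon to glucose, had 16.64, 16.34 and 15.63 in control mice and 16.61, 16.55 and 16.23 in TCE mice. Control mouse 3 was the lowest of the 6, and the difference was 0.26 with it (limma adjusted p = 0.669) and -0.03 without it. Ppargc1a, the coactivator PGC-1α that drives fasting genes, differed by 0.12, with no overlap between 8.84 at most in control mice and 8.88 at least in TCE mice, and a second probe gave 0.25 with overlap. Fbp1 (fructose-1,6-bisphosphatase) differed by -0.02, Slc37a4 (the glucose-6-phosphate transporter) by -0.15 and Pcx (pyruvate carboxylase) by -0.15. Gcgr, the glucagon receptor, differed by -0.21. In all 4 the groups overlapped.

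For uptake and phosphorylation, 1 of 4 detected genes was higher and 3 were lower, with a median of -0.07. Of 14 other detected genes of uptake and hexose entry, outside the set, 8 were higher and 6 lower, with a median of 0.05. Slc2a1, the transporter GLUT1, had log2 signals of 9.89, 9.93 and 9.76 in control mice and of 9.53, 9.57 and 9.67 in TCE mice. All TCE mice lay below all control mice, and the difference of -0.27 did not pass the test (limma adjusted p = 0.279). Slc2a2, the main hepatic transporter GLUT2, had 13.69, 13.66 and 13.47 in control mice and 13.78, 13.62 and 13.81 in TCE mice. It differed by 0.13 with overlap (limma adjusted p = 0.620). Gckr differed by -0.02 and Hk1, hexokinase 1, by -0.11. That Hk1 probe had a control mean of 15.75, and its gene assignment is uncertain, since a position column places it on another chromosome. Much fainter Hk1 probes on the gene's own chromosome, with control means of 8.06 and 5.57, gave -0.13 with overlap and 0.97 without. The control mice of the faintest spanned 5.15 to 6.39, near the lowest signals called well above background, 4.54 to 5.02 per array. In bulk liver, fewer cells of a type and less RNA per cell cannot be told apart. The 5 endothelial markers, all detected, were all lower in TCE mice with a median of -0.11 and 0 passing the test. The median was -0.10 for hepatocyte, -0.12 for Kupffer or macrophage, -0.75 for stellate and 0.26 for neutrophil markers. The summed linear signal of the endothelial markers was 10880 to 12383 in control mice and 7223 to 10846 in TCE mice. Erythroid markers, of which 3 of 4 were detected, were lower as well, with 77100.4 to 110775 in control and 29861 to 91690.3 in TCE mice, and Alas2, the erythroid haem synthesis enzyme, fell by 0.91 (limma adjusted p = 0.0215). Their part in the GLUT1 values was not tested.

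The steps were also followed in single mice as the median deviation of their genes from the control mean. For glycolysis it was 0.25, 0.27 and 0.26 in TCE mice 1, 2 and 3 and -0.02, -0.01 and 0.07 in control mice. For fructose and glycerol it was 0.35, 0.50 and 0.39 in TCE mice and -0.11, -0.01 and 0.14 in control mice. For pyruvate dehydrogenase it was 0.51, 0.41 and 0.79 in TCE mice and 0.13, -0.12 and 0.03 in control mice. In these 3 steps each TCE mouse was above each control mouse. The pentose phosphate step overlapped, since TCE mouse 2 had -0.01 where the other TCE mice had 0.57 and 0.35. Gluconeogenesis (-0.01 to 0.08 in TCE mice), glycogen (-0.06 to 0.11) and uptake (-0.17 to 0.03) stayed near 0 or on both sides of it. The SD between mice of 1 gene had a median of 0.18 in control mice and 0.19 in TCE mice.

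**Figure D4:**
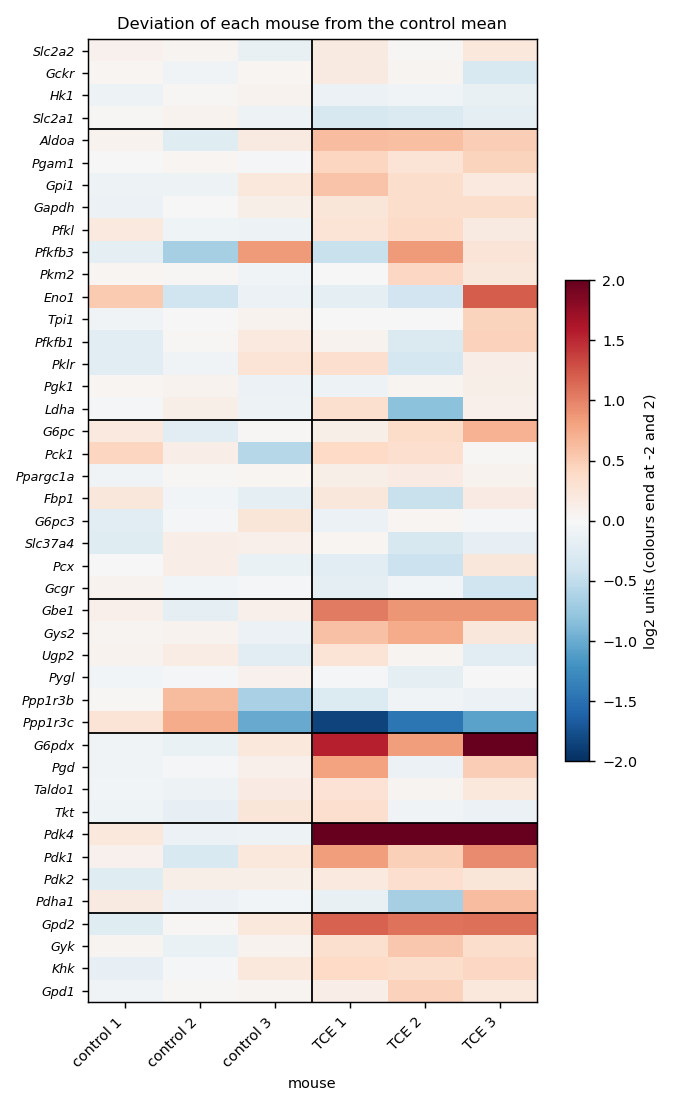
Deviation of each mouse (columns) from the control mean in log2 units (colour) for the 43 detected genes (rows, grouped by step, with lines between steps in the order of the plot of fold changes). The glycolysis rows are mostly pale red in all 3 TCE mice, and the Pdk4, Gpd2, Gbe1 and G6pdx rows are a stronger red there. The Ppp1r3c row is blue in all 3 TCE mice and also in control mouse 3.

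A list of 92 other genes of the same pathways gave the wider context. Of these, 89 had a probe and 72 were detected, 45 higher and 27 lower with a median of 0.08. Only Ppp1r3g passed the test, which is 1.39% of the detected genes beside 1.30% of the array called higher. Slc2a4, the insulin-responsive transporter GLUT4 of muscle and fat, had log2 signals of 4.68, 4.99 and 6.02 in control mice and of 9.19, 6.68 and 7.89 in TCE mice. The groups were apart, with wide spread, and 2 of 3 control arrays were well above background. Its difference of 2.69 (95% CI 1.10 to 4.28) did not pass the test (limma adjusted p = 0.113). Of the 4 adipocyte markers Adipoq, Plin1 and Lep were not detected, and Fabp4 rose by 0.97 (limma adjusted p = 0.0382), so that the summed linear signal of the 4 was 861 to 1084 in control and 1688 to 2197 in TCE mice. Of the 5 smooth or skeletal muscle markers 1 was detected, and their sum was 242 to 415 in control and 231 to 315 in TCE mice. Their part in the Slc2a4 values was not tested.

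Txnip was singled out after its values were seen. It encodes an arrestin-like protein that lowers glucose uptake and answers to glucose through ChREBP. It had log2 signals of 11.15, 11.25 and 10.35 in control mice and of 12.08, 12.25 and 12.37 in TCE mice, which did not overlap. The difference of 1.32 (95% CI 0.70 to 1.93) had a limma adjusted p of 0.0651. Of the 4 carbohydrate-response regulators on the list, Txnip was the 1 that was higher. The other 3 were lower with overlapping groups, Mlxipl by -0.04, Mlx by -0.09 and Klf10 by -0.15.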

How the data were processed

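Liver RNA of 6 mice, 3 control and 3 TCE, was measured on 1-colour Agilent arrays without pooling. The authors extracted the spots with Agilent Feature Extraction 10.7.1.1, and the deposited scanner output gives a background-subtracted intensity per spot with flags. The authors also deposited a table of group mean intensity and of group means of quantile-normalized log2 values. It also gave gene symbols and mm9 probe positions. Its 6 columns of detection flags were not used, because their names conflict with the sample titles. The depth measure that bears on precision is the number of probes well above background, and the number of arrays limits the precision.

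From 59305 spots that are not controls, outlier spots (123 to 189 per array) were left out, log2 intensities (no pseudocount) were averaged over the spots of each of 55681 probes, and arrays were quantile normalized. The resulting group means lay within 0.01 of the deposited ones for 99.977% of values. Groups follow the labels. The 22731 detected probes were tested with limma 3.58.1 (lmFit, eBayes, two-sided tests of TCE against control, no covariate) in R 4.3.3, with statmod 1.5.0 and data.table (version 1.17.8), and Benjamini-Hochberg adjustment. Calls needed an adjusted p of 0.05 or less, with a fold of 2 or more where stated. The procedure was tested on simulated data. Pkm2 is Pkm in the table and was matched by its name in the scanner output.

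All values per mouse are given for genes with an adjusted p of 0.05 or less, the 2 largest differences of each step, the qPCR reference genes, groups of isoenzymes, and other pathway genes that passed the test or stand on the study's list. Members and lists were chosen with earlier results of these data known. Alternatives were the 75th percentile for quantile normalization, normexp background correction (offset 50), a stricter filter on dim probes or none, inclusion of outlier spots, the replicate number or the slide as a block, weighted arrays, an intensity trend, the mean of a gene's probes, each mouse left out, the authors' deposited means, the methods' t-test and, chosen after seeing the data, probes on the gene's own chromosome. Other doses, qPCR and methylation were not analysed here.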

Additional observations from a re-analysis of the deposited data

How the results depend on the processing

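The number of genes called higher at 2-fold, 2 in the main analysis, was 0 when all 55681 probes were tested without a filter on dim probes, 1 with the replicate number as a block, 1 with the slide as a block (which amounts to leaving out control mouse 1, alone on its slide), 4 with array weights (Gbe1 and G6pdx added), 0 by the methods' t-test after adjustment, and 1 to 2 with a mouse left out. At any fold, 3 in the main analysis, it was 0 without the filter, 2 with normexp background correction (Gbe1 lost), 1 with the replicate block, 1 with the slide block, 4 with array weights (G6pdx added), and 1 to 2 with a mouse left out. The replicate numbers did not pair the mice: deviations of same-numbered mice correlated at 0.0897, 0.0066 and -0.0916, so the replicate block is given only here. Without adjustment, the methods' t-test gave 3 higher at 2-fold (Gpd2, G6pdx and Pdk4) and 0 lower, and 0 genes were called lower under any alternative run.

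Step medians that moved by more than the spread between mice were uptake (0.0551 with the mean of probes), gluconeogenesis (0.0135 with array weights, 0.0261 with the mean of probes, -0.0745 to 0.0466 with a mouse left out), glycolysis (0.155 to 0.287 with a mouse left out) and glycogen (-0.0855 to 0.139 with a mouse left out). Signs turned for Ldha (0.0231 with the mean of probes, -0.361 to 0.210 with a mouse left out), G6pc3 (0.0203 with the 75th percentile, 0.0699 with the mean of probes, -0.149 to 0.0852), Pklr (-0.0719 with the slide block, -0.114 to 0.229) and Pck1 (-0.0303 to 0.474), all small differences that passed no test. The cause was not tested.

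With 3 mice per group these arrays leave wide intervals: that of Ppp1r3c runs from -2.56 to -0.35. Genes that missed the threshold are not shown to be unaltered.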
